A study of Mus musculus with 24 samples.

Results

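The nuclei described here are the endothelial and vascular nuclei of the lumbar mouse spinal cord, 727 of 13425 nuclei to which the authors' deposited annotation gave a cell class, and of 18000 barcodes in all. They were chosen by that annotation alone. The study set out to define the cell types of the cord and their activity during behaviour, by Drop-seq of single nuclei, in which RNA caught on barcoded beads in droplets carries unique molecular identifiers (UMIs). The 24 mice, taken here as 1 library of 750 barcodes each, were of the outbred ICR/CD-1 stock, of both sexes and 8 to 11 weeks old. Brain is the tissue in the labels, whereas the protocol describes the lumbar cord without its dorsal root ganglia. The 10 formalin mice had 30 µl of 2% paraformaldehyde injected into the sole of both hindpaws. The 5 rotarod mice ran on a rod that sped up to 40 rotations per minute over 5 minutes. The 9 control mice carry no further description, and 3 of them, controls 7, 8 and 9, have titles that end in cx, a code of unknown meaning here. The habituation of 1 hour is stated for formalin and rotarod mice, and no source used here gives the time from stimulus to collection.

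Endothelial cells line the blood vessels of the cord. Their tight junctions, solute carriers and efflux pumps form the blood-spinal cord barrier, which Wnt and norrin signals induce and maintain. VEGF and angiopoietin receptors govern vessel growth and quiescence, and PDGF-B from endothelial cells recruits pericytes, the mural cells that wrap capillaries and share their basement membrane.

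Promoters are shown for 3 genes the results turn on: Flt1, a VEGF receptor, Slco1a4, an organic anion carrier of the barrier, and Cldn5, the main claudin of its tight junctions. Each window runs from 250 bases before to 50 bases after the RefSeq transcription start on GRCm38.p6, 5′ to 3′ on the gene's strand. Flt1 lies on the minus strand (window chr5:147725962-147726261), Slco1a4 on the minus strand (chr6:141856171-141856470) and Cldn5 on the plus strand (chr16:18776597-18776896). Capitals mark the letters AGGAAG or, read from the other strand, CTTCCT, a core recognised by ETS factors, the family to which the endothelial regulators Erg, Fli1 and Ets1 belong.
Flt1: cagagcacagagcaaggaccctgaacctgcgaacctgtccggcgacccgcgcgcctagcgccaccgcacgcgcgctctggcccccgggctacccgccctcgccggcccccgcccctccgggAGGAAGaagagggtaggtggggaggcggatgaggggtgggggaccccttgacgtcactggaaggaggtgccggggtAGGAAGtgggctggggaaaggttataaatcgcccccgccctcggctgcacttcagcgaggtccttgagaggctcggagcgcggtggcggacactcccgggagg
Slco1a4: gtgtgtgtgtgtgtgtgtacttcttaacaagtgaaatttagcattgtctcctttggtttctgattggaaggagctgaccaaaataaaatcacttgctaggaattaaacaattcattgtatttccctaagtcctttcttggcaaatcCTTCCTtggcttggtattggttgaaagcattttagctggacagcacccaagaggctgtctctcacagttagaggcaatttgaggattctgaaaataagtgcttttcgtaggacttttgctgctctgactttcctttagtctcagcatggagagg
Cldn5: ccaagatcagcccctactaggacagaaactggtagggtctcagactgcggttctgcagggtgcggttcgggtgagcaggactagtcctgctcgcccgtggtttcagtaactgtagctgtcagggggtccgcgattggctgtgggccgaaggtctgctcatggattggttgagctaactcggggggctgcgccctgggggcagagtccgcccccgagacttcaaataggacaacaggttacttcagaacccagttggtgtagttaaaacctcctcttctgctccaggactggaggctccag
The Flt1 window held 2 matches, the Slco1a4 window 1 and the Cldn5 window 0. The motif stood in 35.4% of all 32851 windows of this length (11613 windows). Of the endothelial identity genes listed below, 14 of 25 had a window, and 12 of their 20 windows held it (60%). Of the barrier carriers, 12 of 17 had one, and 5 of 16 windows held it (31.2%). Of the 15 leading genes of the class named below, 11 had one, and 4 of 13 windows held it (30.8%). A match describes the letters of a window, not a bound site.

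The class held 1328472 UMIs, from 11469 to 177931 per mouse. A nucleus of the class held a median of 1538 UMIs (249 to 10846) and 986 genes. The mean over mice of the median UMI count was 1309 in formalin, 1463 in rotarod and 1738 in control mice. CPM values are the UMIs of a gene per 1000000 UMIs of the class in a mouse, given as mean ± SD over 23 mice. Values of other classes are means over their mice with at least 10 nuclei. These were only 4 mice for microglia and 6 for oligodendrocyte precursors. Formalin mouse 8 had 8 nuclei of the class, under the minimum of 10, and enters the shares of nuclei only. UMIs were not divided by gene length, so levels are compared for the same gene between classes or groups, not between genes. Over the whole class, 0 UMIs allow up to 2.258 CPM and 0 of 727 nuclei up to 0.4127% of nuclei, by counting error alone. Of 17977 barcode sequences, 19 occurred in more than 1 library, 0 of them in a nucleus of the class. As a check of the tissue named in the labels, 31 Hox genes, which mark the cord and not the forebrain, held 33915 UMIs over all barcodes. The class held 639 of them (Hoxc4 141, Hoxb6 101).

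The 3 endothelial markers matched the label, and the mural marker Pdgfrb did so less sharply. Flt1 stood at 6301 ± 779.9 CPM in the class (4609 to 7492 over mice), against 122 CPM in microglia, the next class, and 17.8 CPM in neurons. Cldn5 stood at 412 ± 201 CPM, against 3.16 CPM in meningeal and Schwann nuclei. Pecam1, an adhesion molecule of endothelial junctions, stood at 572.5 ± 165 CPM, against 11.3 CPM in meningeal and Schwann nuclei. For these 3 genes every mouse of the class lay above every mouse of the other classes. Pdgfrb, the PDGF receptor of pericytes, stood at 154 ± 90.3 CPM, against 79.5 CPM in meningeal and Schwann nuclei, whose mice overlapped those of the class, and at 0 in 1 mouse of the class. Since the class was defined by clustering on expression, these levels are a description and were not tested.

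**Figure D1:**
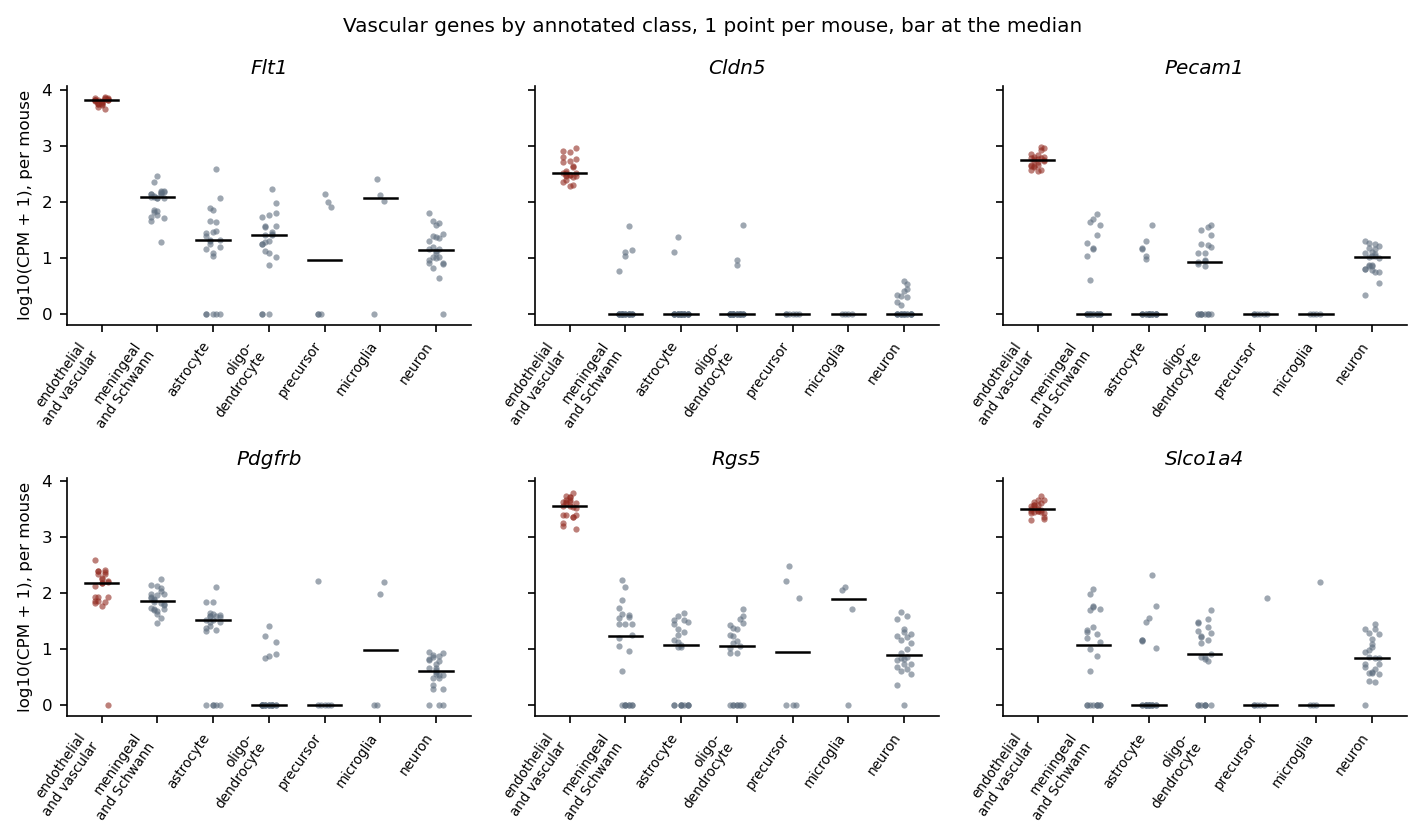
Level of Flt1, Cldn5, Pecam1, Pdgfrb, Rgs5 and Slco1a4 per mouse, as log10 of CPM plus 1, in the endothelial and vascular class (left, red) and 6 other classes (grey); each point is 1 mouse with at least 10 nuclei and the bar is the median. All mice of the class lie above all mice of other classes for Flt1 (6301 CPM on average), but not for Pdgfrb.

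In single nuclei the class also had the highest share with each of the 4 markers, while for Flt1 and Pecam1 the other classes ranked differently than by CPM. A Flt1 UMI was present in 97.7% of nuclei of the class and in 3.29% of neurons, whose median depth was higher (2214 against 1538 UMIs). After thinning each nucleus to 500 UMIs, which left out 39 nuclei of the class and 156 neurons, the shares were 92.2% and 0.864%. Cldn5 was seen in 39.6% of nuclei of the class and in 0.141% of neurons. Pecam1 was seen in 50.8% and 2.42%. Pdgfrb was seen in 18.8% of nuclei of the class, 9.03% of meningeal and Schwann nuclei and 0.943% of neurons. Thinned, the Pdgfrb shares were 7.85% in the class and 3.59% in meningeal and Schwann nuclei.

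The list of 25 endothelial identity genes summed to 19330 ± 2065 CPM in the class, against 927 in microglia, 489 in meningeal and Schwann nuclei and 92.9 in neurons. All 25 genes had UMIs. Among the surface receptors and adhesion molecules, the adhesion receptors Adgrf5 and Adgrl4 stood at 1831 ± 330.2 and 1682 ± 409 CPM, and the vascular phosphatase Ptprb at 1706 ± 275 CPM. The angiopoietin receptor Tek stood at 849.9 ± 204.5 CPM and the sialomucin Emcn at 827 ± 252 CPM. VE-cadherin, encoded by Cdh5, stood at 171 ± 63.8 CPM in the class and at 60.0 CPM in meningeal and Schwann nuclei. The ETS factors Fli1, Ets1 and Erg stood at 607 ± 232, 516 ± 149 and 434 ± 105 CPM. Fli1 also reached 245 CPM in microglia, whereas the SOX factors Sox17 (142 ± 73.4 CPM) and Sox18 (89.9 ± 68.1 CPM) reached at most 32.2 and 12.9 CPM in any other class.

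Of 3989 genes at 50 CPM or more in the class, 46 were more than 20 times as high there as in the next class. The 15 with the largest ratio were Gm9946, Gimap8, Slc38a5, Cldn5, Gm694, Zfp366, Gimap6, Wfdc1, Slco1a4, Tek, Unc45b, Slc19a3, Ly6c1, Esam and Flt4. Slc38a5, a glutamine carrier, stood at 124 ± 80.3 CPM in the class and 0.89 CPM in oligodendrocytes, a ratio of 139. Zfp366, a zinc finger factor, stood at 584 ± 231.5 CPM in the class and 5.02 CPM in oligodendrocytes, a ratio of 116. The thiamine carrier Slc19a3 had a ratio of 68.5 and the junction protein Esam 63.0. By Spearman correlation over 127 sums of a mouse and a class, the genes most like Flt1 were Fli1 (coefficient 0.771), Hspa12b (0.744), Ndrg1 (0.74), Abcg2 (0.735) and Igfbp7 (0.73). These sums share libraries, depth and the classes themselves, so the values are a description.

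Barrier solute carriers were high in the class and low elsewhere. The 17 genes summed to 12230 ± 1805 CPM in the class, against 517 CPM in astrocytes and 262 CPM in neurons. Slco1a4 stood at 3357 ± 855 CPM, against 38.8 CPM in microglia, and the thyroid hormone carrier Slco1c1 at 2609 ± 542.5 CPM, against 134 CPM in astrocytes. The taurine carrier Slc6a6 stood at 1462 ± 411 CPM in the class, and the zinc carrier Slc39a10 at 861 ± 242 CPM. Slc2a1, the glucose transporter of the barrier, stood at 681 ± 351 CPM, against 45.1 CPM in microglia. The cationic amino acid carrier Slc7a1 stood at 537 ± 198 CPM, the large neutral amino acid carrier Slc7a5 at 294 ± 133 CPM and the lipid carrier Mfsd2a, which limits transcytosis, at 248 ± 107 CPM. Each of the 17 carriers had UMIs in nuclei of the class.

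Of the 7 ABC efflux genes, Abcb1a, which encodes P-glycoprotein, stood at 1413 ± 287 CPM, Abcg2 at 612 ± 155 CPM and Abcc4 at 398 ± 166 CPM. In meningeal and Schwann nuclei, the next class, they stood at 118.5, 96.5 and 57.3 CPM. The transferrin receptor Tfrc stood at 527 ± 170.1 CPM, against 51.5 CPM in neurons, and the insulin receptor Insr at 637 ± 142 CPM, against 166 CPM in oligodendrocyte precursors.

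The tight junction list of 11 genes was less particular to the class than its claudin. Tjp1, the scaffold ZO-1, stood at 1266 ± 316 CPM in the class and 639 CPM in oligodendrocytes, and the polarity protein Pard3 at 397 ± 99.3 CPM in the class and 483 CPM in oligodendrocytes. Occludin, encoded by Ocln, stood at 190.4 ± 82.0 CPM and the tricellular junction protein Lsr at 253.5 ± 103.5 CPM, against 16.9 and 26.5 CPM in meningeal and Schwann nuclei. Of 20 claudin genes, Cldn5 held 453 UMIs in the class. Cldn34c1 held 36 UMIs, Cldn11 26, Cldn14 21, Cldn10 16 and Cldn12 12. The remaining 14 held 0 to 6 UMIs each, and 10 of them, among them Cldn3, held 0. Cldn11, the claudin of myelin, stood at 22.1 ± 27.4 CPM in the class and 306 CPM in oligodendrocytes.

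Receptors and targets of Wnt and norrin signalling were seen in the class, and whether single nuclei held them together was not measured. The 16 genes summed to 3042 ± 459.5 CPM, against 491 CPM in meningeal and Schwann nuclei and 197 CPM in neurons. Among receptors and co-receptors, Fzd6 stood at 213 ± 86.7 CPM and Fzd4, the norrin receptor, at 57.4 ± 42.6 CPM. Its co-activator Tspan12 stood at 81.3 ± 35.4 CPM in the class and 79.2 CPM in astrocytes. Adgra2 and Reck, which together recognise Wnt7 ligands, stood at 98.4 ± 40.6 and 108 ± 86.3 CPM. Among nuclear effectors and targets, Lef1 stood at 1085 ± 323 CPM, against 26.4 CPM in meningeal and Schwann nuclei. The Wnt inhibitor and target Apcdd1 stood at 295 ± 127 CPM and the barrier factor Foxq1 at 179 ± 82.2 CPM.

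VEGF receptors and ligands were split between classes. Beside Flt1, the receptor Kdr stood at 481 ± 167 CPM in the class, against 25.8 CPM in microglia, and Flt4 at 99.8 ± 58.4 CPM, against 1.64 CPM in meningeal and Schwann nuclei. The co-receptor Nrp1 stood at 664.5 ± 172 CPM, against 183 CPM in meningeal and Schwann nuclei, while Nrp2 was lower in the class (118 ± 105 CPM) than there (164 CPM). The ligand Vegfa stood at 5.16 ± 10.4 CPM in the class, from 7 UMIs, and at 274.5 CPM in astrocytes. The PDGF ligands Pdgfb and Pdgfd stood at 136 ± 55.6 and 1008 ± 317 CPM in the class, and Pdgfd also at 565 CPM in astrocytes. The angiopoietins Angpt1 and Angpt2 held 26 and 39 UMIs in the class, in contrast with 1062 UMIs of their receptor Tek.

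Of the TGF-beta and BMP genes, the co-receptor endoglin (Eng) stood at 458.5 ± 137 CPM, the receptor Bmpr2 at 838 ± 209 CPM and the BMP targets Id1 and Id3 at 289 ± 80.6 and 276 ± 101 CPM. Id1 stood at 18.1 CPM in meningeal and Schwann nuclei, the next class. Of the Notch genes, the endothelial receptor Notch1 stood at 230.3 ± 65.8 CPM and its target Hes1 at 181 ± 98.2 CPM.

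Genes of all 3 vessel segments were seen, capillary genes in nearly every nucleus. A UMI of the 8 capillary genes was present in 707 nuclei (97.3%), of the 8 venous genes in 296 (40.7%) and of the 12 arterial genes in 181 (24.9%). Both an arterial and a venous gene were seen in 87 nuclei (12.0%). Spock2 stood at 1875 ± 374 CPM and the chemokine Cxcl12 at 1346 ± 492 CPM, against 299 CPM in oligodendrocyte precursors and 32.2 CPM in microglia. The arterial genes Sema3g and Efnb2 stood at 59.2 ± 43.7 and 44.8 ± 30.5 CPM. The venous regulator Nr2f2 stood at 134 ± 85.9 CPM in the class and 183 CPM in meningeal and Schwann nuclei, and Vwf at 46.3 ± 43.8 CPM. These 3 lists differ in how high their genes are, so the shares do not give the makeup of the vessel tree. Of the lymphatic genes, Lyve1 held 0 UMIs and Prox1 11.

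Of the pericyte genes, Rgs5 was seen in 86.1% of nuclei of the class, whereas 56.0% of nuclei held no UMI of any other. The 11 pericyte genes summed to 5521 ± 1701 CPM, of which Rgs5, a regulator of G-protein signalling high in pericytes, gave 3636 ± 1338 CPM. The ATPase Atp13a5 stood at 413 ± 212 CPM, the potassium channel subunit Abcc9 at 398 ± 222 CPM, vitronectin (Vtn) at 345 ± 292 CPM and Notch3 at 322 ± 165 CPM. The proteoglycan Cspg4 stood at 111 ± 71.5 CPM in the class and 253 CPM in oligodendrocyte precursors, and Notch3 at 227 CPM in astrocytes. Of the 8 smooth muscle genes, Mylk stood at 149 ± 68.2 CPM and Myl9 at 48.8 ± 42.0 CPM, while Acta2 and Cnn1 held 1 UMI each and Tagln 3.

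Without Rgs5, the pericyte list held 0 UMIs in 407 nuclei (56.0%), 1 to 4 in 147 (20.2%) and 5 or more in 173 (23.8%). The median depth of the 173 nuclei was 2228 UMIs, against 1297 in the 407. In the 173 nuclei the endothelial identity list stood at 15330 CPM, against 20430 CPM in the 407. Flt1 stood at 4765 CPM in the 173 nuclei and 6800 CPM in the 407, and Slco1a4 at 2594 and 3705 CPM. Lef1 stood at 729 CPM in the 173 and 1187 CPM in the 407, and Rgs5 at 4437 and 3038 CPM. The 3 bins each had at least 3 endothelial UMIs in every nucleus. Of the 173 nuclei, 172 held 5 or more endothelial UMIs. In meningeal and Schwann nuclei, by contrast, 50 of 1839 held 5 or more pericyte UMIs, and 19 of those 50 held no endothelial UMI. More mural than endothelial UMIs were found in 56 of 727 nuclei (7.7%), and in 15 when Rgs5 was left out. Doublets were not called, so nuclei with both sets of genes cannot be told apart from 2 nuclei under 1 barcode.

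**Figure D2:**
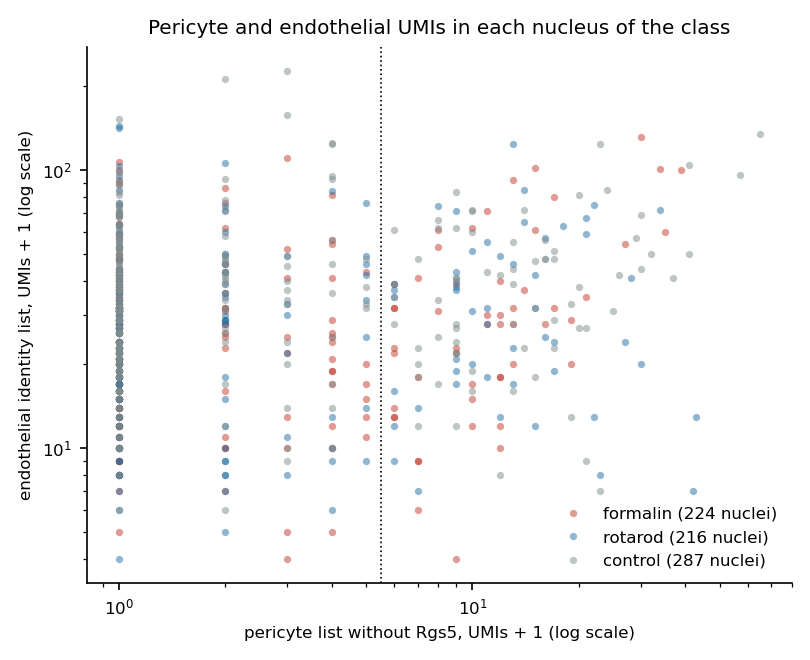
UMIs of the pericyte list without Rgs5 (x axis) and of the endothelial identity list (y axis) in each of the 727 nuclei, both plus 1 on log scales, coloured by group; the dotted line stands before 5 pericyte UMIs. The 173 nuclei right of the line hold 3 to 134 endothelial UMIs and those to the left 3 to 225, so no nucleus lies at 0 endothelial UMIs.

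Basement membrane and vasomotor genes were shared with other classes to differing degrees. The matricellular protein Sparc stood at 3570 ± 946 CPM in the class, against 710.2 CPM in meningeal and Schwann nuclei, while its relative Sparcl1 stood at 1801 ± 500.5 CPM in the class and 2382 CPM in astrocytes. The collagen IV genes Col4a1 and Col4a2 stood at 352 ± 178.5 and 233 ± 75.1 CPM, and the laminin Lama4 at 326 ± 110 CPM in the class and 285 CPM in meningeal and Schwann nuclei. The collagen-binding integrin Itga1 stood at 744 ± 184 CPM, against 67.8 CPM in oligodendrocyte precursors. Endothelial nitric oxide synthase (Nos3) stood at 155 ± 63.1 CPM, against 5.21 CPM in meningeal and Schwann nuclei. Caveolin (Cav1) stood at 222 ± 81.8 CPM and its coat protein Cavin2 at 269 ± 94.0 CPM. Plvap, which marks fenestrated vessels outside the barrier, held 4 UMIs in 3 nuclei.

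Most genes of inflamed endothelium held few UMIs or none. Of 19 such genes, Sele, Ccl2, Cxcl1, Il6, Lcn2, Ackr1 and Ch25h held 0 UMIs, Selp and Cxcl10 held 1 each and Vcam1 6. Icam1, the leukocyte adhesion molecule, held 16 UMIs. Of the 550.9 ± 150.3 CPM of the list, Nfkbia, the NF-kappaB inhibitor, gave 428 ± 146 CPM, and it stood at 457 in formalin, 434 in rotarod and 396 CPM in control mice. The interleukin-1 receptor Il1r1 stood at 54.1 ± 54.1 CPM. Rapid activity genes summed to 1111 ± 416 CPM, mostly from the flow-responsive factors Klf2 (188 ± 117.5 CPM) and Klf4 (172 ± 114 CPM), from Klf6 (190.2 ± 99.8 CPM) and from Jun (127 ± 61.7 CPM). Fos held 5 UMIs in the class, 0 in formalin mice, and Npas4 and Egr2 held 0. Among glucocorticoid-responsive genes, Mt1 stood at 287 ± 166 CPM, Klf9 at 271 ± 84.4 CPM and Zbtb16 at 221.5 ± 186 CPM. Of the hypoxia list, Epas1, the endothelial HIF-2 subunit, stood at 869 ± 211 CPM, against 63.9 CPM in astrocytes.

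Marker RNA of other cells was also measured in the class. The 8 neuron markers summed to 6192 ± 2511 CPM, mostly from Meg3 (4237 ± 1930 CPM), against 44510 CPM in neurons and 8827 CPM in meningeal and Schwann nuclei. Oligodendrocyte markers summed to 2599 ± 1018 CPM, against 21860 CPM in oligodendrocytes, and astrocyte markers to 1706 ± 689 CPM, against 14530 CPM in astrocytes. Blood genes summed to 3771 ± 3752 CPM and ranged from 0 to 12820 CPM between mice, with haemoglobin Hbb-bs at 2082 ± 2066 CPM from UMIs in 118 nuclei of the class, against a list mean of 22930 CPM in microglia of 4 mice. Microglia markers summed to 66.3 ± 44.4 CPM with Tmem119 at 0, and perivascular macrophage markers to 17.6 ± 38.4 CPM with Lyve1 at 0. Schwann cell markers summed to 409 ± 616 CPM, against 5400 CPM in meningeal and Schwann nuclei.

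The share of the class differed between formalin and rotarod mice. It averaged 4.36 ± 1.15% of classed nuclei in formalin mice (SD, n = 10), from 2.05% through a median of 4.18% to 6.31%. In rotarod mice 1 to 5 it was 8.10%, 8.86%, 10.2%, 3.59% and 8.95%, a mean of 7.95 ± 2.55% (n = 5). In control mice it averaged 5.18 ± 3.69% (n = 9), from 1.72% through a median of 4.35% to 14.5%. Rotarod mice 1, 2, 3 and 5 lay above every formalin mouse, and rotarod mouse 4 lay within the formalin range. The difference of formalin from rotarod mice was -3.59 percentage points (two-sided exact permutation over mice, p = 0.00733, adjusted p = 0.022 over 3 comparisons). Without rotarod mouse 1 the adjusted p was 0.0599, and without mouse 2, 3 or 5 it was 0.0659. The labels count 10 formalin samples; with samples 1 to 5 merged with 6 to 10 in order, the adjusted p was 0.119.

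Against controls, the formalin difference was -0.821 points (adjusted p = 0.684, exact permutation) and the rotarod difference 2.77 points (adjusted p = 0.289, exact permutation). Control mouse 9 held 88 of the 287 control nuclei and 14.5% of its classed nuclei (95% Wilson interval 11.9 to 17.5%). Without it the rotarod difference was 3.93 points with an adjusted p of 0.0163 by the same exact test, and the formalin difference was 0.344 points. That was the only 1 of 14 single omissions to pass for rotarod against control, and the adjusted p reached 0.533 among them (exact permutation). Without all 3 cx controls, the rotarod difference was 4.20 points with an adjusted p of 0.0325 by the exact test. Of non-neuronal nuclei, the class made up 8.38 ± 2.77% in formalin, 17.8 ± 5.65% in rotarod and 12.9 ± 11.8% in control mice. The formalin and rotarod shares then differed by -9.38 points (adjusted p = 0.00799, exact permutation). A share of nuclei depends on how many nuclei of each class were recovered and kept, and a change in number cannot be told apart from a change in recovery.

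**Figure D3:**
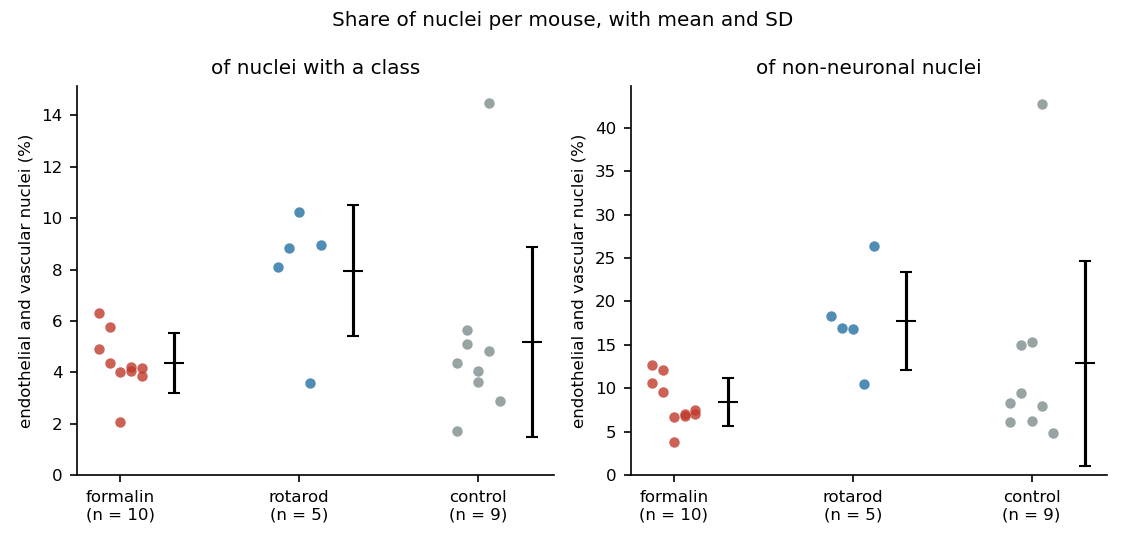
Endothelial and vascular nuclei as a percent of nuclei with a class (left) and of non-neuronal nuclei (right), 1 point per mouse, with the mean and SD beside the points. Rotarod mice average 7.95% of classed nuclei, formalin mice 4.36% and control mice 5.18%, where control mouse 9 lies at 14.5%.

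Within the class, the mural share did not separate the groups beyond their spread. Nuclei with more mural than endothelial UMIs made up 7.72 ± 3.71% of the class in 9 formalin mice, 6.76 ± 4.47% in 5 rotarod mice and 5.79 ± 5.33% in 9 control mice (SD). The differences were 1.93 points for formalin and 0.972 points for rotarod against control, and 0.958 points for formalin against rotarod, each with an adjusted p of 0.724 by exact permutation. By 5 or more pericyte UMIs without Rgs5, a measure chosen after seeing the data, the shares were 23.0 ± 8.29%, 23.0 ± 10.8% and 20.96 ± 9.87% in the same 3 groups, with an adjusted p of 0.985 by exact permutation.

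No gene of the class passed the test between any 2 groups. Counts were summed per mouse and tested with edgeR's quasi-likelihood test, with Benjamini-Hochberg adjustment over all 1334 genes tested at 0.05, so p-values measure the spread between mice. In summed counts, fewer cells of a type and less RNA per cell cannot be told apart. Of the 1334 genes, 0 (0%) passed in formalin against control, with 56 at an unadjusted p under 0.05 and 0 by DESeq2. In rotarod against control 0 (0%) passed, with 128 at an unadjusted p under 0.05 and 0 by DESeq2. In formalin against rotarod 0 (0%) passed, with 128 at an unadjusted p under 0.05 and 2 by DESeq2, among them Lsamp. After leaving out the 173 nuclei rich in pericyte UMIs, an alternative added after seeing the data, 0 of 708 genes passed in each comparison.

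The 4 markers overlapped between groups. Flt1 ranged from 4891 through a median of 6383 to 6910 CPM in formalin mice. In rotarod mice 1 to 5 it stood at 7288, 6955, 6534, 5869 and 5887 CPM. In control mice it ranged from 4609 through 6666 to 7492 CPM. The ranges overlapped, with a log2 fold change of -0.09 ± 0.13 (SE) for formalin and 0.01 ± 0.15 for rotarod against control (edgeR adjusted p = 0.999 and 0.996). Cldn5 ranged from 241.5 through 440.3 to 794.9 CPM in formalin mice, stood at 412, 319.5, 223, 285 and 296 CPM in rotarod mice 1 to 5 and ranged from 191 through 329 to 901 CPM in control mice. Its log2 fold change was 0.26 ± 0.26 for formalin and -0.31 ± 0.30 for rotarod against control (edgeR adjusted p = 0.999 and 0.787), and 0.57 ± 0.31 for formalin against rotarod (adjusted p = 0.545).

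Pecam1 ranged from 354 through 456 to 948 CPM in formalin mice, stood at 602, 528, 459.8, 537 and 575 CPM in rotarod mice 1 to 5 and ranged from 371 through 608 to 901 CPM in control mice. Pdgfrb ranged from 59.0 through 152 to 237 CPM in formalin mice, stood at 222, 86.0, 390.1, 251.5 and 186 CPM in rotarod mice 1 to 5 and ranged from 0 through 131.5 to 258.5 CPM in control mice. The Pdgfrb log2 fold change was -0.18 ± 0.35 for formalin and 0.47 ± 0.34 for rotarod against control (edgeR adjusted p = 0.999 and 0.689). All these ranges overlapped.

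No list held a gene that passed the test (edgeR, 0% of all genes in each comparison). Of the 22 endothelial identity genes tested, 7 were positive and 15 negative in log2 fold change in formalin against control, and again 7 and 15 in rotarod against control, with median log2 fold changes of -0.10 and -0.12. The medians over all genes tested were 0.01 for formalin and -0.01 for rotarod against control and 0.02 for formalin against rotarod. Of all 1334 genes tested, 648 were negative in formalin and 686 in rotarod against control. Some genes stand on more than 1 list, so the counts of different lists are not independent. Of the 15 barrier carriers tested, 6 were positive and 9 negative in formalin (median -0.02), and 4 positive and 11 negative in rotarod against control (median -0.10). All 8 capillary genes had a negative fold change in rotarod against control (median -0.30), as 5 of 8 did in formalin against control (median -0.14). Of the 5 caveolae genes tested, 4 were negative in formalin (median -0.27) and 4 in rotarod against control (median -0.31). Of the 7 Wnt and norrin genes tested, 4 were positive in formalin (median 0.03) and 3 in rotarod against control (median -0.09). Of the activation list, 1 of 19 genes, Nfkbia, had enough counts to be tested, and of the rapid activity list 3 of 26, so changes of the others were not detectable at this depth. The arterial and venous lists had 0 genes tested.

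**Figure D4:**
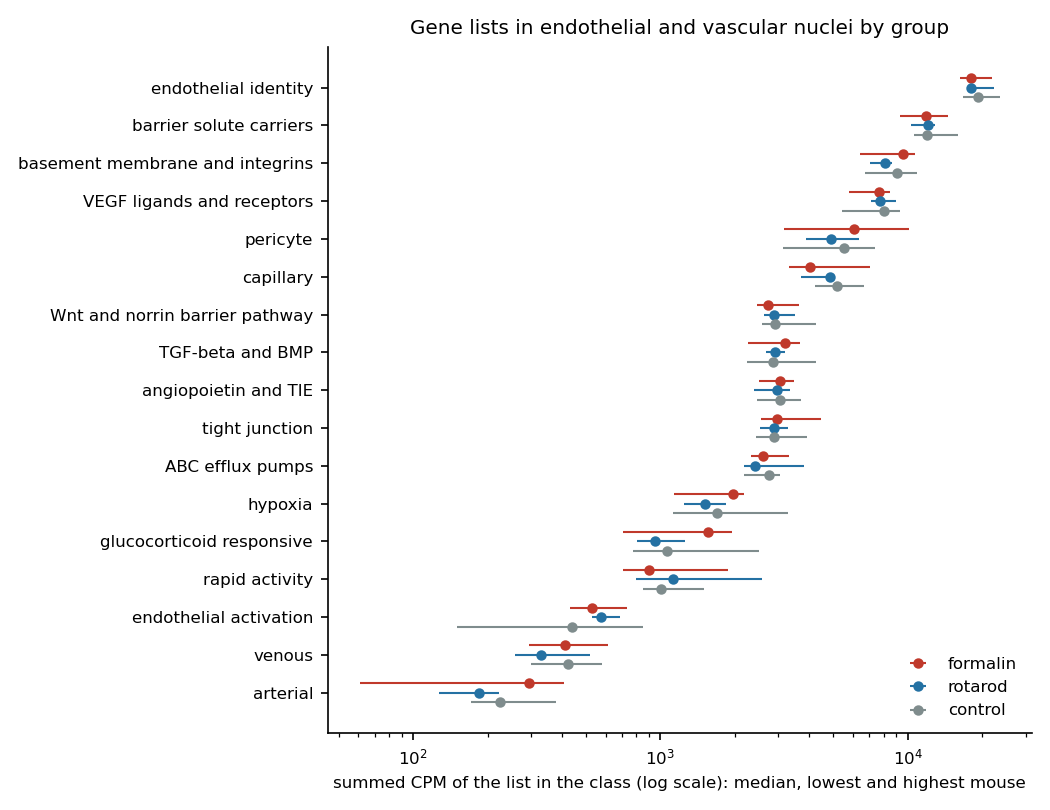
Summed CPM of 17 gene lists in the class for formalin (red), rotarod (blue) and control (grey) mice, on a log scale; the point is the median mouse and the line runs from the lowest to the highest. The 3 ranges overlap in every list drawn, for example 16330 to 21880 CPM in formalin, 17750 to 22400 in rotarod and 16690 to 23640 in control mice for endothelial identity.

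In formalin against control mice, the 10 genes with the smallest p included Cspp1, Gnb4, Luc7l3, Tulp4, Ptpn9, Ly6a, Dok5, Sntb1 and Ndnf. Cspp1, a centrosome protein, ranged from 0 through 121 to 157 CPM in formalin and from 177 through 242 to 342 CPM in control mice, which did not overlap. Its log2 fold change was -1.16 ± 0.27 (SE, edgeR adjusted p = 0.106). Cspp1 was picked by its p in the same mice, so the separate ranges add no support. Gnb4, a G-protein beta subunit, averaged 393 ± 158 CPM in formalin and 218 ± 78.5 CPM in control mice (log2 fold change 0.86 ± 0.24, edgeR adjusted p = 0.631). Ly6a, a surface protein of endothelial and stem cells, averaged 259 ± 213 CPM in formalin and 501 ± 257 CPM in control mice (log2 fold change -1.15 ± 0.37, edgeR adjusted p = 0.755). With no filter on low counts, Ly6a passed among 20018 genes (adjusted p = 0.00721). Ndnf, a secreted factor, averaged 401 ± 161 CPM in formalin and 232 ± 98.0 CPM in control mice. The other 5 genes named had adjusted p from 0.631 to 0.794.

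In rotarod against control mice, the smallest p belonged to Dok5, a docking adaptor of receptor kinases. Dok5 stood at 348.5, 454.6, 139.3, 251.5 and 507.5 CPM in rotarod mice 1 to 5, against a range of 0 through 60.4 to 148 CPM in control mice. Its log2 fold change was 2.25 ± 0.55 (edgeR adjusted p = 0.384), and with no filter on low counts it passed (adjusted p = 2.2e-06). Rotarod mouse 3 lay within the control range. Dok5 was also above the control median in 7 of 9 formalin mice, which share those controls. It was not particular to the class, where it averaged 194 CPM. Other classes averaged from 76.3 CPM in oligodendrocyte precursors to 308 CPM in microglia, with 297 CPM in meningeal and Schwann nuclei. Gm14005, Rapgef5, a guanine exchange factor for Rap, and Stard8, a GTPase-activating protein, were above the control median in 5 of 5 rotarod mice. Their log2 fold changes were 1.07 ± 0.31, 0.87 ± 0.28 and 0.85 ± 0.28, with edgeR adjusted p of 0.384 each. Genes picked by small p lean to 1 side in the same mice, so such counts add no support. Without the 3 cx controls 2 genes passed, Xdh and the mitochondrial mt-Rnr2, and without rotarod mouse 1 Gm13341 passed.

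Nrxn3, Pcdh9, Kcnip4, Lsamp and Ctnna2, also among the 10 genes with the smallest p in rotarod against control, were below the control median in 5 of 5 rotarod mice. They were picked by p in the same comparison, so this count adds no support. Nrxn3 encodes a neurexin, a presynaptic adhesion molecule, and Lsamp and Pcdh9 encode other neural adhesion molecules. All 5 were lowest in the class among the 7 classes. Nrxn3 and Kcnip4 were highest in neurons, at 694 and 899 CPM in the class and 4192 and 4172 CPM in neurons. Pcdh9 and Ctnna2 were highest in oligodendrocytes, at 1515 and 488 CPM in the class and 11900 and 2693 CPM in oligodendrocytes, and Lsamp in astrocytes, at 2227 and 18600 CPM. Nrxn3 averaged 427 ± 153.5 CPM in rotarod and 810 ± 317 CPM in control mice (log2 fold change -0.91 ± 0.25, edgeR adjusted p = 0.384). The neuron marker list moved the same way within the class, less so by medians than by means. It stood at 2285 to 6758 CPM (mean 4860, median 4658) in rotarod and 3370 to 14200 CPM (mean 6975, median 5397) in control mice. It was also lower in rotarod than in control mice in meningeal and Schwann nuclei, at 6921 ± 1333 CPM in rotarod and 9709 ± 2614 CPM in control mice, and in astrocytes, at 6944 ± 1424 and 9132 ± 3964 CPM. Astrocyte markers stood at 1397 ± 197 CPM in rotarod and 1699 ± 313 CPM in control mice within the class, and the 3 of 8 tested had negative fold changes (median -0.57, 0 passed). Oligodendrocyte markers differed less, at 2624 ± 1115 CPM in rotarod and 2769 ± 1275 CPM in control mice within the class. Of the 4 tested, 1 was positive and 3 were negative in fold change (median -0.23, 0 passed). The part of these markers in the result was not tested.

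Formalin and rotarod mice differed most in Lsamp. Lsamp ranged from 1626 through 2516 to 4073 CPM in formalin mice and stood at 855.5, 1057, 878, 1727 and 2225 CPM in rotarod mice 1 to 5, and rotarod mice 4 and 5 lay within the formalin range. Its log2 fold change was 0.95 ± 0.24 (edgeR adjusted p = 0.145, DESeq2 adjusted p = 0.0439). Without rotarod mouse 5, 3 genes passed, among them Lsamp and Pcdh9 (edgeR adjusted p = 0.0162). Lsamp was highest in astrocytes, at 18600 CPM, and astrocyte markers stood at 1886 ± 1045 CPM in formalin and 1397 ± 197 CPM in rotarod mice within the class. Neuron markers stood at 6149 ± 1501 CPM in formalin and 4860 ± 1759 CPM in rotarod mice. Oligodendrocyte markers were not higher in formalin mice, at 2416 ± 729.5 CPM there and 2624 ± 1115 CPM in rotarod mice. The part of these marker lists in these values was not tested.

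Mitochondrially encoded transcripts were higher in rotarod than in formalin mice by their sum, which was not tested. Their 27 genes summed to 39400 ± 4981 CPM in formalin (33540 to 48640), 63950 ± 9992 CPM in rotarod (51260 to 76240) and 42340 ± 11720 CPM in control mice (27600 to 65010). No formalin mouse reached the lowest rotarod mouse. In these same mice, mt-Rnr2, mt-Nd1 and mt-Nd4 were among the 10 genes with the smallest p, so the separate ranges add no support. The ribosomal RNA mt-Rnr2 had a log2 fold change of -0.73 ± 0.21 in formalin against rotarod (edgeR adjusted p = 0.204) and passed when only the 2 groups were fitted (adjusted p = 0.0239). The complex I genes mt-Nd1 and mt-Nd4 had log2 fold changes of -0.75 ± 0.22 and -0.67 ± 0.20 (edgeR adjusted p = 0.204 and 0.243). Rotarod mice were also highest in meningeal and Schwann nuclei, at 25680 ± 9082 CPM in formalin, 46910 ± 6266 CPM in rotarod and 27720 ± 9149 CPM in control mice. They were highest in astrocytes too, at 15300 ± 6755 CPM in formalin, 29360 ± 9303 CPM in rotarod and 14950 ± 5527 CPM in control mice. These transcripts are made outside the nucleus, and their part in other differences of rotarod mice was not tested.

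**Figure D5:**
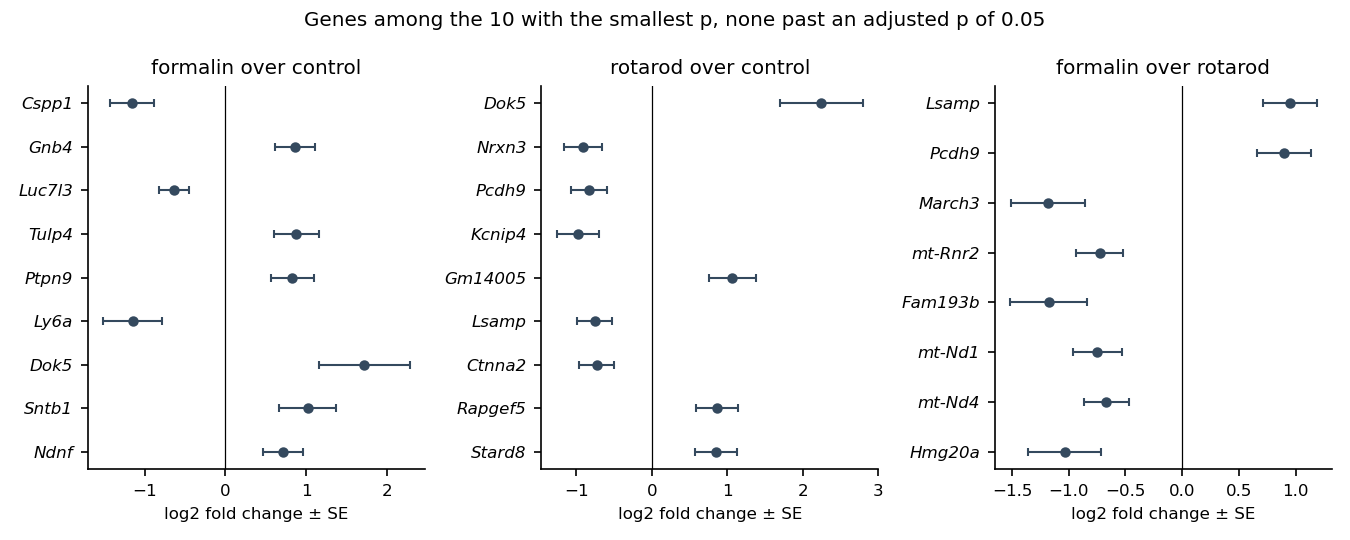
Log2 fold change with its SE for genes among the 10 with the smallest p in formalin over control (left), rotarod over control (middle) and formalin over rotarod mice (right), from edgeR; none passed an adjusted p of 0.05. Dok5 lies at 2.25 in rotarod over control, while Nrxn3, Pcdh9, Kcnip4, Lsamp and Ctnna2 lie below 0 there.

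No effect was shown to be particular to the class. The difference of an effect between the class and meningeal and Schwann nuclei of the same 23 mice passed in 0 of 2751 genes (0%) for formalin and 0 (0%) for rotarod against control, by edgeR with the mouse as a block. At an unadjusted p under 0.05 there were 117 and 140 genes. Against astrocytes of 22 mice, 0 of 2247 (0%) passed for formalin and 0 (0%) for rotarod, with 83 and 142 at an unadjusted p under 0.05. The smallest p against meningeal and Schwann nuclei belonged to Hmcn1, an extracellular matrix protein, for formalin (log2 difference 1.17 ± 0.29, edgeR adjusted p = 0.335) and to Fyn, a kinase, for rotarod (-1.74 ± 0.42, adjusted p = 0.208). Hmcn1 passed without control mouse 6 or without formalin mouse 6, and Fyn without rotarod mouse 5.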

How the data were processed

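Single nuclei of 24 mice were profiled by Drop-seq. The authors deposited raw UMI counts per gene and barcode and a table of classes, and no count was normalized. The submitters' processing notes name the builds mm10 and GRCm38; the aligner, the annotation, use of strand and treatment of doublets are not given there or in the labels, so near-identical copies (haemoglobin, Ly6 genes) and overlapping genes may share counts. Every barcode was matched to a mouse, and 0 per-sample columns were left unused.

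Counts of the class were summed per mouse with at least 10 of its nuclei (23 mice) and fitted by edgeR 4.0.16 in R 4.3.3 (TMM scaling, expression filter by group, robust quasi-likelihood test), with 1 fit over the 3 groups and adjustment over all genes tested at 0.05. DESeq2 1.42.0 was the other tool. Class by group interactions had the mouse as a block. Shares were tested by exact permutation of mice, two-sided. Fits were tested on simulated data. Depth per mouse was 11469 to 177931 UMIs of the class; intervals and limits cover counting error only. Python 3.11.15, numpy 2.4.6, scipy 1.17.1, pandas 2.3.3 and matplotlib 3.10.9 were used. The labels' sample names gave the groups.

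The members, lists, markers and rules were chosen with earlier results of these data known. With fewer than 5 genes called, the rule named the 10 genes with the smallest p per comparison and the 4 markers. Levels named up to 8 members per list and those at 0, the 15 leading genes by ratio at 50 CPM or more, and the 5 genes most like Flt1; some genes that these rules name are not reported here. Xdh, Gm13341, Fos and other genes outside this rule were chosen after their values were seen. Alternatives were another tool or scaling, no filter, a minimum of 20 nuclei, 2 groups only, nuclei thinned to 500 UMIs, no cx controls, merged formalin samples, other denominators, each mouse left out, a replicate block and, added after seeing the data, no pericyte-rich nuclei, pericyte UMIs as the mural measure and samples 1 to 5 with no block.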

Additional observations from a re-analysis of the deposited data

Results flagged for a closer look

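A sample far from the others of its group was found in 9 of 108 group values, where chance gives about 1 in 20. The share of the class in control mouse 9 was 14.5%, against 5.63% in the next control mouse. In formalin mouse 10 the tight junction list reached 4457 CPM and the rapid activity list 1874 CPM, against 3162 and 1163 CPM in the next formalin mouse. In rotarod mouse 1, the shallowest of its group, the ABC efflux list reached 3802 CPM and the rapid activity list 2567 CPM, against 2431 and 1157 CPM in the next. In formalin mouse 3 the Notch list stood at 590.1 CPM, against 1001 CPM in the next lowest. In control mouse 9 the glucocorticoid-responsive list reached 2507 CPM and the hypoxia list 3293 CPM, against 1185 and 2132 CPM in the next control mouse. Pecam1 reached 948 CPM in formalin mouse 4, against 638 CPM in the next formalin mouse.

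Endothelial transcripts were also seen outside the class. Of the 3818 barcodes that the authors discarded, 24 held 5 or more UMIs of the endothelial identity list, as did 4 of the 757 barcodes with no class. Neither set entered a comparison.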

How the results depend on the processing

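Of 42 results for single named genes, 36 kept their direction under every setting run. The exceptions were as follows. In formalin against control, Flt1 was 0.014 and Pecam1 0.12 (log2) with at least 20 nuclei per mouse, and Cldn5 was -0.11 without the cx controls. In rotarod against control, Flt1 was -0.10 without the cx controls, -0.0016 without pericyte-rich nuclei and -0.052 to 0.059 with each mouse left out, and Pecam1 was 0.020 with no filter and 0.049 with at least 20 nuclei. In formalin against rotarod, Pecam1 was -0.28 with no filter and -0.13 to 0.068 with each mouse left out.

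The share difference of formalin from control was 0.616 points without the cx controls and -1.25 to 0.344 with each mouse left out; of rotarod from control, 4.20 without the cx controls and 2.19 to 3.93; of formalin from rotarod, -3.60 with merged formalin samples and -4.68 to -3.01. Mural share differences were 1.11 to 3.22, -0.462 to 2.26 and -0.164 to 2.39 points with each mouse left out, in the same order of comparisons.

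The count of 0 called genes rose to 2 by DESeq2 in formalin against rotarod. With no filter it was 1 in formalin against control (Ly6a), 3 in rotarod against control (Dok5, Gm13341, Usp24) and 4 in formalin against rotarod (2610307P16Rik, Gm13341, mt-Nd1, mt-Rnr1). It was 1 in formalin against rotarod with only the 2 groups fitted, 2 in rotarod against control without the cx controls and 5 in formalin against rotarod after thinning (Adgrb3, Lsamp, Maml2, mt-Nd4, Pcdh9). With each mouse left out it was 0 to 0, 0 to 1 and 0 to 3 in formalin against control, rotarod against control and formalin against rotarod. Interaction counts were 0 to 1 against meningeal and Schwann nuclei for both stimuli, and against astrocytes 0 to 0 for formalin and 0 to 1 for rotarod, where Rfx4 passed without control mouse 7. The cause was not tested.

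With a replicate block on samples 1 to 5, formalin against rotarod gave 1 call (mt-Rnr2, adjusted p = 0.0166), and the same libraries without the block 0. Same-numbered formalin and rotarod samples correlated at -0.164 to 0.0728 in their deviations. Whether the numbers pair them was not tested. Formalin samples k and k + 5 correlated at 0.0134 to 0.288 over 4 pairs, and each was closest to the other. The median over all 36 pairs of formalin libraries was -0.113. Deviations were taken from the group's own mean, which by itself makes correlations within a group negative on average. The main tests take the formalin libraries as independent mice, and whether they are was not tested. Merged formalin samples gave 0 calls. Depth left 1334 of 32962 genes testable.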

Other observations

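Endothelial genes outside the groups above were also measured. Endothelin 1 (Edn1), a vasoconstrictor, stood at 68.6 ± 65.7 CPM in the class (SD, n = 23), against 25.8 CPM in oligodendrocyte precursors, and its mural receptor Ednra held 100 UMIs in 71 nuclei. The sphingosine 1-phosphate receptor S1pr1 stood at 198 ± 105 CPM, against 54.8 CPM in astrocytes. The Notch ligands Dll4, Jag1 and Jag2 held 30, 60 and 86 UMIs in the class. The angiotensin receptor Agtr1a held 0 UMIs. Of the receptors that carry cargo across the barrier, the leptin receptor Lepr held 65 UMIs, Lrp8 177 and Ager 4. Of the heat shock genes, Hsp90aa1 stood at 158 in formalin, 109 in rotarod and 94.4 CPM in control mice, and Hspa1b held 0 UMIs; no heat shock gene had enough counts to be tested.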
